A study of Mus musculus with 4 samples.

Results

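The genes for the proteins of the cytosolic ribosome were followed in colonic epithelial cells of Stat4-/- and wild-type mice, with and without leukemia inhibitory factor (LIF). They were taken by symbol from the deposited table: the numbered Rpl and Rps genes, Rplp0, Rplp1, Rplp2 and Rpsa, whose mean reached 1 FPKM (fragments per kilobase of transcript, scaled to library size) over the 4 libraries. This gave 80 of 17604 genes: 46 core genes of the large subunit, 30 core genes of the small subunit and 4 paralogs (Rps27l, Rpl22l1, Rpl7l1 and Rpl37rt). Another 3 matching symbols fell under the mean: Rpl39l at 0.0525, Rpl3l at 0.050 and Rpl32l at 0.0175 FPKM. The lowest gene above it was Rpl37rt at 9.32 FPKM.

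RNA was sequenced from 4 groups with 1 column of values each: Stat4-/- cells with LIF, Stat4-/- cells without LIF, wild-type cells with LIF and wild-type cells without LIF. All cells were primary epithelium of the C57BL/6 mouse colon, which had been plated on Matrigel and left to attach for 24 h. The LIF dose was 20 ng/ml, and the time of exposure of each library is not given in the labels, nor are the age and sex of the mice. The study's title places the comparison in the activation of STAT4, a transcription factor of the JAK-STAT pathway, by LIF, a cytokine that signals through gp130.

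Each ribosome carries nearly every ribosomal protein once, so the genes for them are transcribed at high and closely matched levels in dividing epithelium. Their mRNAs begin with a run of pyrimidines, the 5′ terminal oligopyrimidine (TOP) tract, through which mTORC1 and LARP1 control their translation and stability. Free ribosomal proteins are unstable, and some, such as Rpl5 and Rpl11, bind Mdm2 and so act on p53.

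Start-site sequence is shown for 3 of the 5 core genes with the highest LIF coefficients (Rps27, Rps21 and Rpl35a), for the 5 core genes with the highest genotype coefficients (Rps19, Rpl28, Rpl13, Rpl27 and Rps3), for a core gene with a long annotated transcript (Rpl22) and for a pair of paralogs, because a pyrimidine tract at the start is the feature known to be shared by these genes. Each line has the 30 bases before and 20 bases from the RefSeq start (GRCm38.p6), read along the transcript. Not every line has such a tract at this start (Rps19 and Rpl22 have none), and the starts used in these cells were not mapped. Of genes with several RefSeq starts, one with CTTTCC or CTCTTT nearby is shown where there is one, and otherwise the first listed. Capitals mark CTTTCC and CTCTTT, which overlap in CTCTTTCC.
Rps27: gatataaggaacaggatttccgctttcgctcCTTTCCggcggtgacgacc
Rps21: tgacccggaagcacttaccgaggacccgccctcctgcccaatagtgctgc
Rpl35a: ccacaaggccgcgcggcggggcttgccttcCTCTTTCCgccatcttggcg
Rps19: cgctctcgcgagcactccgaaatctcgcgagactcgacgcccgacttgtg
Rpl28: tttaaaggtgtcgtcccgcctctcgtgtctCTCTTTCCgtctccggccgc
Rpl13: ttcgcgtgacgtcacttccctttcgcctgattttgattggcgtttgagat
Rpl27: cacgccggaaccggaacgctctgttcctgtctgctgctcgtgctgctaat
Rps3: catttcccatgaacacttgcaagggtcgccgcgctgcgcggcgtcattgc
Rpl22: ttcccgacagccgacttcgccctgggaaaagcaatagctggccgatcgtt
Rps27l: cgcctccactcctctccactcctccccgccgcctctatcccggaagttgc
Rpl22l1: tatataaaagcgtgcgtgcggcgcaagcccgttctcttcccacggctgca

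These stretches lie at chr3:90213629-90213678 (minus strand, Rps27), chr2:180257349-180257398 (plus strand, Rps21) and chr16:33056452-33056501 (plus strand, Rpl35a) for the genes leading the LIF effect. Those for the genotype effect lie at chr7:24884562-24884611 (plus strand, Rps19), chr7:4792935-4792984 (plus strand, Rpl28), chr8:123102320-123102369 (plus strand, Rpl13), chr11:101442215-101442264 (plus strand, Rpl27) and chr7:99483690-99483739 (minus strand, Rps3), and the others at chr4:152325696-152325745 (plus strand, Rpl22), chr9:66946056-66946105 (plus strand, Rps27l) and chr3:28805478-28805527 (plus strand, Rpl22l1). Of the 80 genes, 60 had a RefSeq promoter entry. Within 30 bases of the start, on the transcript strand, CTTTCC stood in 11 of these 60 (18.3%), against 3.40% of 27025 promoters, and on either strand in 13 (21.7%), against 6.44%. CTCTTT stood there in 11 (18.3%), against 2.68% on the transcript strand, and in 11 on either strand, against 5.32%. A run of at least 8 pyrimidines was found in 34 of the 60 (56.7%), against 25.8%. CGGAAG, on either strand of the whole 300-base promoter, stood in 40 of the 60 (66.7%), against 18.8% of all promoters and 34.3% of those of tested genes. These are matches of letters, not mapped sites.

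Ribosomal protein genes were among the most abundant in all libraries. They made up 12.4% of all FPKM in Stat4-/- cells with LIF and 11.5% in Stat4-/- cells without LIF, against 11.3% in wild-type cells with LIF and 10.6% in wild-type cells without. The share was thus highest in Stat4-/- cells with LIF and lowest in untreated wild-type cells. Of the 100 genes of highest mean FPKM, 42 were ribosomal protein genes, and of the 206 genes whose mean reached 300 FPKM, 69 were.

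The 76 core genes had a median of mean levels of 631 FPKM, with the 10th percentile at 355 and the 90th at 930 FPKM. Rplp1, an acidic protein of the ribosomal stalk, was the highest, at 1768 FPKM with LIF and 1639 without in Stat4-/- cells, against 1508 and 1396 FPKM in wild-type cells. Since 75.1% of its 31-base words stand in other annotated genes, its level depends on how shared reads were counted. Rpl41, which encodes a very short basic peptide, followed at 1514 and 1422 FPKM in Stat4-/- cells with and without LIF, against 1458 and 1274 FPKM in wild-type cells. Rps2, a protein of the mRNA entry side of the small subunit, had 1295 and 1274 FPKM in Stat4-/- cells with and without LIF, against 1146 and 1114 FPKM in wild-type cells. For Rplp1 and Rps2, both Stat4-/- libraries lay above both wild-type libraries, whereas those of Rpl41 overlapped.

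At the other end, Rps15a was the lowest core gene, with 59.4 and 53.04 FPKM in Stat4-/- cells with and without LIF, against 55.4 and 52.0 FPKM in wild-type cells. Rpl22, an RNA-binding protein of the large subunit, had 84.5 and 80.0 FPKM in Stat4-/- cells with and without LIF, against 79.7 and 76.8 FPKM in wild-type cells. Rps20 had 98.6 and 90.4 FPKM in Stat4-/- cells with and without LIF, against 86.1 and 81.6 FPKM in wild-type cells. These were also the core genes with the longest annotated transcripts, at 5179 bases for Rps15a, 2051 for Rpl22 and 3706 for Rps20, against a median of 777.5 bases over the 80 genes. FPKM divides by transcript length, so a long isoform that is little used lowers the value, but its part here was not tested. Rpl5, with 2045 bases, had a mean of 386 FPKM, against 80.3 FPKM for Rpl22. Over the core genes the highest mean was 28.7 times the lowest.

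**Figure D1:**
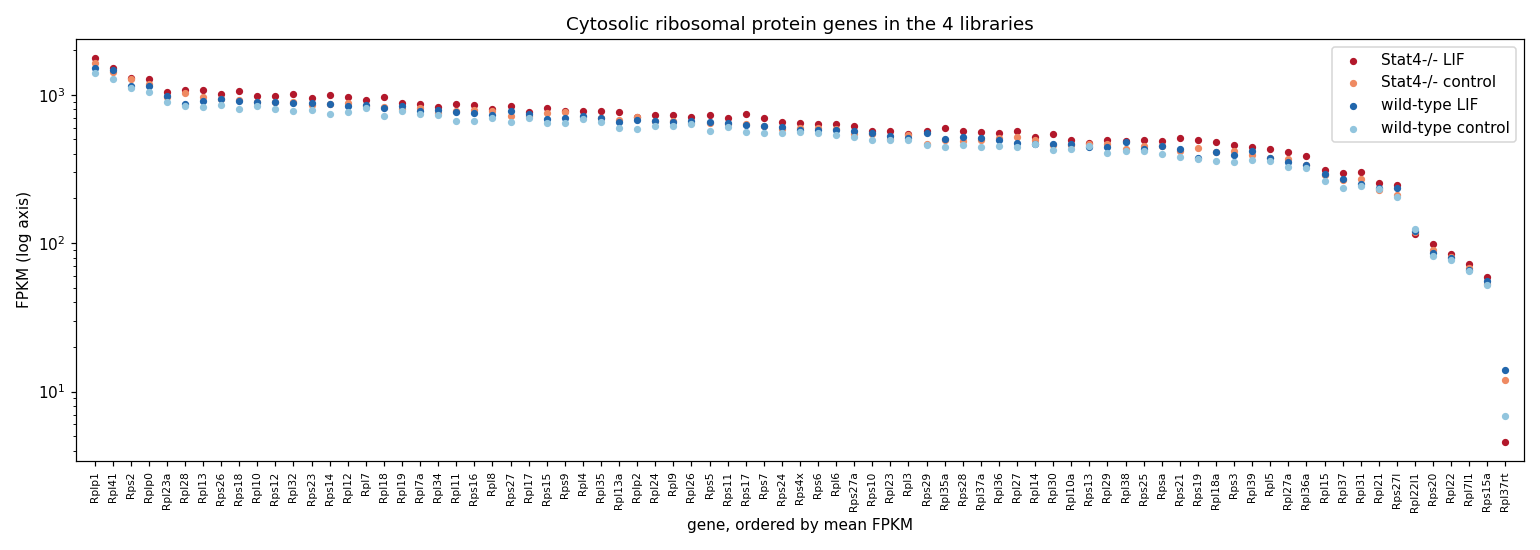
FPKM of 79 of the 80 ribosomal protein genes (log axis) in the 4 libraries, 1 point per library, ordered by mean FPKM. Most core genes lie between 355 and 930 FPKM with Stat4-/- LIF on top and wild-type control at the bottom, while Rpl22l1 and Rpl37rt keep another order.

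The large and the small subunit kept a nearly constant proportion. The median core gene of the large subunit had 709 and 653 FPKM in Stat4-/- cells with and without LIF, against 655 and 595 FPKM in wild-type cells. The median core gene of the small subunit had 679 and 606 FPKM in Stat4-/- cells with and without LIF, against 613 and 556 FPKM in wild-type cells. The summed level of the large subunit genes over that of the small subunit genes was 1.59 and 1.60 in Stat4-/- cells with and without LIF, and 1.60 and 1.61 in wild-type cells.

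The labels could be checked against a few genes outside the family. Stat4 stood at 2.98 and 2.01 FPKM in Stat4-/- cells with and without LIF, against 20.5 and 19.7 FPKM in wild-type cells, in the direction of the genotype labels. The epithelial genes Krt8, at 2972 to 3173 FPKM, and Epcam, at 464 to 500 FPKM, were high in all 4 libraries. Both belong to a list of 10 epithelial markers, of which 5 fell in Stat4-/- cells in the fit described below, against 7.68% of all genes tested. Listed fibroblast markers were present too, with sums of 590 to 649 FPKM, of which Vim held 316 to 380 FPKM. The Y-linked genes Ddx3y and Eif2s3y stood at 0.10 FPKM or less in both Stat4-/- libraries, against 5.86 to 7.69 FPKM in both wild-type libraries, so genotype and the sex-linked difference cannot be told apart here. Depth, estimated from the steps of low FPKM values, was about 27.8 and 23.1 M fragments (M for mega) in Stat4-/- cells with and without LIF, and about 21.9 and 24.2 M in wild-type cells. In bulk RNA, fewer cells of a type and less RNA per cell cannot be told apart.

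The comparison of LIF with control asked how the cytokine moved the ribosomal protein genes in each genotype. With LIF, nearly the whole family was slightly more abundant, with a median ratio of about 1.1 over its core genes. In Stat4-/- cells, 78 of 80 genes were higher with LIF, where 48% of the 12274 genes tested were, and the median difference in log2(FPKM + 1) was 0.14, against -0.01 over all genes tested. In wild-type cells, 78 of 80 were higher with LIF, where 50.9% of all genes tested were, and the median difference was 0.13, against 0.00 over all genes tested. As ratios of FPKM, the core genes had a median of 1.10 in Stat4-/- cells, from 1.00 for Rplp2 to 1.21 for Rps21, and of 1.09 in wild-type cells, from 0.975 for Rps13 to 1.19 for Rps29. In both genotypes together, 77 of the 80 genes were above control, against 28.8% of all genes tested. With 1 library per group, these differences carry no test.

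**Figure D2:**
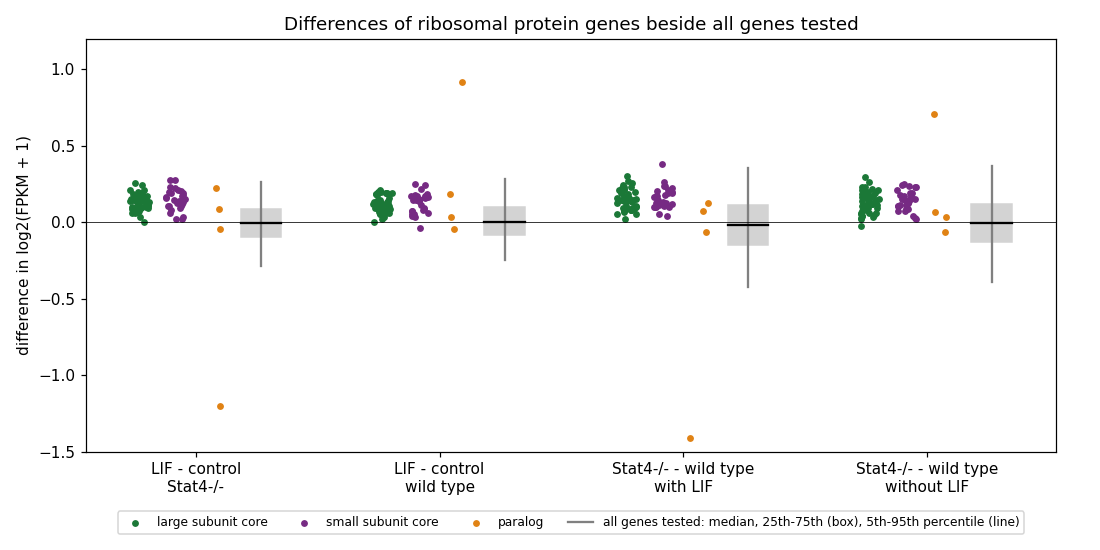
Difference in log2(FPKM + 1) of each core and paralog gene (points) in the 4 contrasts, beside all 12274 genes tested (line at the median, box from the 25th to the 75th and whisker from the 5th to the 95th percentile). The core genes cluster near 0.13, above the median of all genes near 0, while the paralog Rpl37rt lies far from them.

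A fit of both factors over all genes tested the LIF effect shared by both genotypes (limma, additive, adjusted p under 0.05). Most of the spread of each gene came from the trend over all genes (prior 10.2 degrees of freedom). The rest came from how far the genotypes differ in their LIF effect for that gene (1 residual degree of freedom). A small p-value thus does not show that the genotypes agreed for that gene. Under the trend, the standard error (SE) of the LIF coefficient was 0.032 for Rps29 and 0.081 for Mrpl1, at 9.88 to 11.77 FPKM. The family's median level in Stat4-/- cells with LIF was 654 FPKM, against 11.55 FPKM over all genes tested. The shares of all genes beside the calls are thus not matched for level, and those of genes of like level were not worked out. In that fit 20 of the 80 genes rose with LIF, against 0.701% of all genes tested, and 0 fell, against 0.122%. At an unadjusted p under 0.05, 69 were higher, against 8% of all genes tested, and 0 lower, against 4.52%. Those that rose were 9 core genes of the large subunit, 10 of the small subunit and the paralog Rps27l, and their log2 coefficients ran between 0.16 and 0.26. All 20 calls were lost under median-of-ratios scaling, quantile normalization, no filter on low values, no mean-variance trend, and correction for length or GC content. In each of those settings 0 to 4 genes of the whole table were called higher with LIF. At a pseudocount of 0.1, 9 of the 80 were called, among 32 genes of the table. At a mean of at least 5 FPKM 30 were called, among 112, and under upper-quartile scaling 22, among 89. The median coefficient over the 80 genes was 0.13 in the main setting and stayed above 0 in every alternative run, with its lowest value, 0.05, under quantile normalization.

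Rps29, a small zinc-binding protein of the small subunit (ENSMUSG00000034892, chr12:69157722-69159186, mm10), led the LIF effect. It had 569 FPKM with LIF and 469 without in Stat4-/- cells, against 549 with LIF and 462 without in wild-type cells. Both LIF libraries lay above both controls, and the coefficient was 0.26 ± 0.032 (SE; limma, adjusted p = 0.00898). Rps27, another zinc-binding protein of the small subunit, had 846 with LIF and 722 FPKM without in Stat4-/- cells, against 776 with LIF and 655 without in wild-type cells. Its groups did not overlap either, with a coefficient of 0.24 ± 0.031 (SE; limma, adjusted p = 0.00953).

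Rps21 had 509 FPKM with LIF and 419 without in Stat4-/- cells, against 432 with LIF and 383 without in wild-type cells, and rose by a coefficient of 0.23 ± 0.037 (SE; limma, adjusted p = 0.0239). Rpl35a, whose human gene is mutated in some families with Diamond-Blackfan anaemia, had 593 FPKM with LIF and 496 without in Stat4-/- cells, against 507 with LIF and 447 without in wild-type cells. Its coefficient was 0.22 ± 0.034 (SE; limma, adjusted p = 0.0218). Rps14, which is lost in the human 5q- syndrome, had 992 FPKM with LIF and 861 without in Stat4-/- cells, against 864 with LIF and 745 without in wild-type cells. In all 3 genes both LIF libraries lay above both controls, and the Rps14 coefficient was 0.21 ± 0.030 (SE; limma, adjusted p = 0.0195). These 3 genes, Rps29 and Rps27 were picked by their coefficients in the same libraries, so the lack of overlap adds no support. The share of all genes without overlap was not worked out.

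The genes of proteins that link ribosome assembly to p53 lay on both sides of the threshold, and no difference between them was tested. Rpl11 had 861 FPKM with LIF and 773 without in Stat4-/- cells, against 763 with LIF and 668 without in wild-type cells, and rose with a coefficient of 0.17 ± 0.031 (SE; limma, adjusted p = 0.0342). The Rpl11 call held in 2 of 10 alternative settings. Its partner in the 5S ribonucleoprotein, Rpl5, had 433 FPKM with LIF and 378 without in Stat4-/- cells. In wild-type cells Rpl5 had 374 with LIF and 358 without, and it did not pass (coefficient 0.13 ± 0.039 SE, limma, adjusted p = 0.172). Rps27a, made as a fusion with ubiquitin, had 614 FPKM with LIF and 544 without in Stat4-/- cells, against 573 with LIF and 516 without in wild-type cells, and rose by a coefficient of 0.16 (limma, adjusted p = 0.0435). Rps6, the substrate of the S6 kinases, had 639 FPKM with LIF and 598 without in Stat4-/- cells, against 583 with LIF and 554 without in wild-type cells. Its coefficient of 0.08 ± 0.032 (SE) did not pass (limma, adjusted p = 0.279).

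A few core genes hardly moved with LIF. Rps13 had 476 FPKM with LIF and 468 without in Stat4-/- cells, against 444 with LIF and 455 without in wild-type cells, so its direction differed between the genotypes. Rps2, whose levels are given above, had a coefficient of 0.03 (limma, adjusted p = 0.723). Rpl3, a protein that reaches the peptidyl transferase centre, had 544 FPKM with LIF and 532 without in Stat4-/- cells, against 508 with LIF and 495 without in wild-type cells, and Rpl14 had 517 with LIF and 497 without in Stat4-/- cells, against 465 with LIF and 465 without in wild-type cells. Their coefficients were both 0.03 (limma, adjusted p = 0.748 for Rpl3 and 0.798 for Rpl14).

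The genes of the stalk had unequal LIF differences. Rplp0, the base of the stalk, had 1275 FPKM with LIF and 1190 without in Stat4-/- cells, against 1154 with LIF and 1048 without in wild-type cells. Rplp2 had 710 FPKM with LIF and 710 without in Stat4-/- cells, against 673 with LIF and 590 without in wild-type cells. The difference between LIF and control for Rplp2 was thus 0.00 in Stat4-/- cells and 0.19 in wild-type cells on the log2(FPKM + 1) scale, whereas Rplp1 had 0.11 in both. None of the 3 passed for LIF in limma, with adjusted p of 0.0938 for Rplp0, 0.101 for Rplp1 and 0.375 for Rplp2.

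The comparison of Stat4-/- with wild-type cells asked how the genotype moved the same genes. The family was more abundant in Stat4-/- cells, by a like amount. With LIF, 78 of 80 genes were higher in Stat4-/- cells, where 46.1% of all genes tested were, with a median difference of 0.14, against -0.02 over all genes tested. Without LIF, 78 of 80 were higher, where 48.5% of all genes tested were, with a median of 0.13, against -0.01. The median ratio of FPKM over the core genes was 1.11 with LIF, from 1.02 for Rpl38 to 1.31 for Rps19, and 1.10 without LIF, from 0.984 for Rpl21 to 1.23 for Rpl28. In both treatments together 77 of 80 were higher in Stat4-/- cells, against 31.9% of all genes tested.

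In the same limma fit, 55 of the 80 genes rose in Stat4-/- cells, against 7.81% of all genes tested, and 0 fell, against 7.68%. They were 32 core genes of the large subunit, 23 of the small subunit and 0 paralogs. At an unadjusted p under 0.05, 65 genes were higher, against 14.4% of all genes tested, and 0 lower, against 15%, again with 0 paralogs. As for LIF, these shares of all genes are not matched for level. The number of calls was 17 with no filter on low values, where 407 of 17604 genes were called higher. It was 11 under quantile normalization (697 of 12274 genes), and 27 after a correction for transcript length (685 of 11903). With no mean-variance trend it was 0 (123 of 12274), with 23 of the 80 higher at an unadjusted p under 0.05. In the other settings it was 51 to 59, where 860 to 972 genes were called higher.

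Rps19, whose human gene is the most often mutated in Diamond-Blackfan anaemia (ENSMUSG00000040952, chr7:24884371-24889806, mm10), led the genotype effect. It had 492 FPKM in Stat4-/- and 377 in wild-type cells with LIF, and 435 in Stat4-/- and 368 in wild-type cells without. Both Stat4-/- libraries lay above both wild-type libraries, and the coefficient was 0.31 ± 0.040 (SE; limma, adjusted p = 0.000337). Rpl28 (chr7:4792874-4795066, mm10) had 1070 FPKM in Stat4-/- and 869 in wild-type cells with LIF, and 1025 in Stat4-/- and 835 in wild-type cells without. Its difference was the same at both treatments, 0.30, with a coefficient of 0.30 ± 0.030 (SE; limma, adjusted p = 5.54e-05).

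Rpl13 had 1070 FPKM in Stat4-/- and 904 in wild-type cells with LIF, and 966 in Stat4-/- and 823 in wild-type cells without. Rps3, a protein of the mRNA entry channel that also acts in DNA repair, had 460 FPKM in Stat4-/- and 393 in wild-type cells with LIF, and 416 in Stat4-/- and 351 in wild-type cells without. Rpl27 had 567 FPKM in Stat4-/- and 474 in wild-type cells with LIF, and 517 in Stat4-/- and 446 in wild-type cells without. In all 3 the Stat4-/- libraries did not overlap the wild-type libraries, and all rose in limma, with coefficients of 0.24 for Rpl13, 0.23 for Rps3 and 0.24 for Rpl27. These genes and Rps19 were picked by their coefficients in the same libraries, so the lack of overlap adds no support here either.

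The stalk genes all passed for genotype. The coefficient was 0.23 for Rplp1 (limma, adjusted p = 0.000229), 0.16 for Rplp0 (adjusted p = 0.00331) and 0.17 for Rplp2 (adjusted p = 0.0177). Rpsa, the laminin receptor precursor of the small subunit, had 487 FPKM in Stat4-/- and 450 in wild-type cells with LIF, and 451 in Stat4-/- and 401 in wild-type cells without, and rose by 0.14 (limma, adjusted p = 0.0161). Among the genes with known links to p53 or signalling, Rpl11 rose by 0.19 (limma, adjusted p = 0.00164), Rpl5 by 0.14 (adjusted p = 0.0296) and Rps6 by 0.12 (adjusted p = 0.0246). Rpl10, a late-assembling protein needed for subunit joining, had 984 FPKM in Stat4-/- and 894 in wild-type cells with LIF, and 890 in Stat4-/- and 841 in wild-type cells without. It passed with 0.11 (limma, adjusted p = 0.0345), but its sign turned to -0.06 under quantile normalization.

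The genes that led for LIF did not all lead for genotype. Rps29 had the third lowest core genotype coefficient, 0.04 ± 0.032 (SE; limma, adjusted p = 0.480), and Rpl38, which in mouse is needed for axial patterning, the lowest, 0.03 ± 0.033. Rpl38 had 486 FPKM in Stat4-/- and 477 in wild-type cells with LIF, and 432 in Stat4-/- and 420 in wild-type cells without. Rpl21 had 253 FPKM in Stat4-/- and 237 in wild-type cells with LIF, and 230 in Stat4-/- and 233 in wild-type cells without, so it was the 1 core gene that was lower in Stat4-/- cells without LIF.

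Marker genes of cell types moved with genotype beside these values. Their genotype counts stand beside shares over all genes tested of 7.81% higher and 7.68% lower. The summed level of 10 epithelial markers was 7873 to 8418 FPKM in the Stat4-/- libraries, against 8788 to 9011 FPKM in the wild-type libraries, and 5 of the 10 fell in limma. Of 5 smooth muscle markers 4 rose and 1 fell, with sums of 220 to 244 FPKM in Stat4-/- and 169 to 178 FPKM in wild-type libraries. Of 4 endothelial markers 3 rose, with sums of 191 to 201 FPKM in Stat4-/- and 159 to 165 FPKM in wild-type libraries. Of 7 fibroblast markers 1 rose and 2 fell, with sums of 590 to 615 FPKM in Stat4-/- and 634 to 649 FPKM in wild-type libraries. Of 6 macrophage markers 1 rose, with sums of 113 to 120 FPKM in Stat4-/- and 98.7 to 111 FPKM in wild-type libraries. That marker, Cd14, made up most of these sums, at 71.15 to 71.34 FPKM in Stat4-/- and 52.82 to 63.59 FPKM in wild-type libraries. The genotype coefficient was above 0 for 3 of the 6 and below 0 for 3, with a median of -0.09. Of 6 B and plasma cell markers 4 rose and 1 fell, with sums of 22.0 to 33.5 FPKM in Stat4-/- and 37.3 to 38.5 FPKM in wild-type libraries. T and NK cell markers summed to 3.14 to 6.43 FPKM in Stat4-/- and 4.51 to 5.14 FPKM in wild-type libraries, with Nkg7 at 0 in Stat4-/- cells without LIF, and red blood cell markers to 13.5 to 15.6 FPKM in Stat4-/- and 21.7 to 22.1 FPKM in wild-type libraries. Of the 3 red blood cell markers tested, 0 rose and 2 fell in Stat4-/- cells. With LIF the epithelial sum was 7873 FPKM, against 8418 without, in Stat4-/- cells, and 8788 FPKM, against 9011 without, in wild-type cells. For LIF, 0 markers of any of these lists passed in limma, where 0.701% of all genes tested were higher and 0.122% lower. At an unadjusted p under 0.05, 4 of the 10 epithelial markers were lower, against 4.52% of all genes tested, and 0 higher, against 8%. By that measure 2 of 7 fibroblast markers were lower and 1 higher, 3 of 5 smooth muscle markers and 1 of 6 macrophage markers lower, 3 of 6 B and plasma cell markers and 1 of 3 red blood cell markers higher, and 0 endothelial, T or NK cell markers either. The part of these cell types in the ribosomal protein results was not tested.

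Both effects together put the libraries in 1 order for nearly the whole family. Stat4-/- cells with LIF were the highest and wild-type cells without LIF the lowest in 76 of the 80 genes, against 14.4% of all genes tested, and the exceptions were Rps13, Rpl21, Rpl22l1 and Rpl37rt. Between these extremes the core genes had a median ratio of 1.21, from 1.05 for Rps13 to 1.35 for Rpl18. The median difference of LIF effects, Stat4-/- minus wild type, was 0.02 over the 80 genes and -0.01 over all genes tested, and 49 of the 80 were above 0, against 47.7% of all genes tested. This difference has no test with 1 library per group.

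Among core genes the LIF effect was larger in Stat4-/- cells by 0.15 for Rps19, by 0.13 for Rpl5 and by 0.12 for Rpl36a on the log2(FPKM + 1) scale. Rpl36a had 385 FPKM with LIF and 337 without in Stat4-/- cells, against 339 with LIF and 323 without in wild-type cells. At the other end were Rplp2, with a difference of -0.19, and Rpl41, with -0.10. Across the 76 core genes, the LIF differences of the 2 genotypes, which share no library, correlated with Pearson's r = 0.51 and Spearman's rho = 0.47, against 0.16 and 0.19 over 12194 other genes. The genotype differences with and without LIF, which also share no library, had an r of 0.65 and a rho of 0.65, against 0.61 and 0.52 over the other genes. The points of these correlations are genes measured in the same libraries, and they are not independent replicates. Each gene also has the same transcript length on both axes, and the part of length in these correlations was not tested. The other genes stood at lower levels, with a median of 11.4 FPKM in Stat4-/- cells with LIF, against 700 FPKM for the core genes. No set of like level was compared, so the correlations of the 2 sets cannot be ranked.

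**Figure D3:**
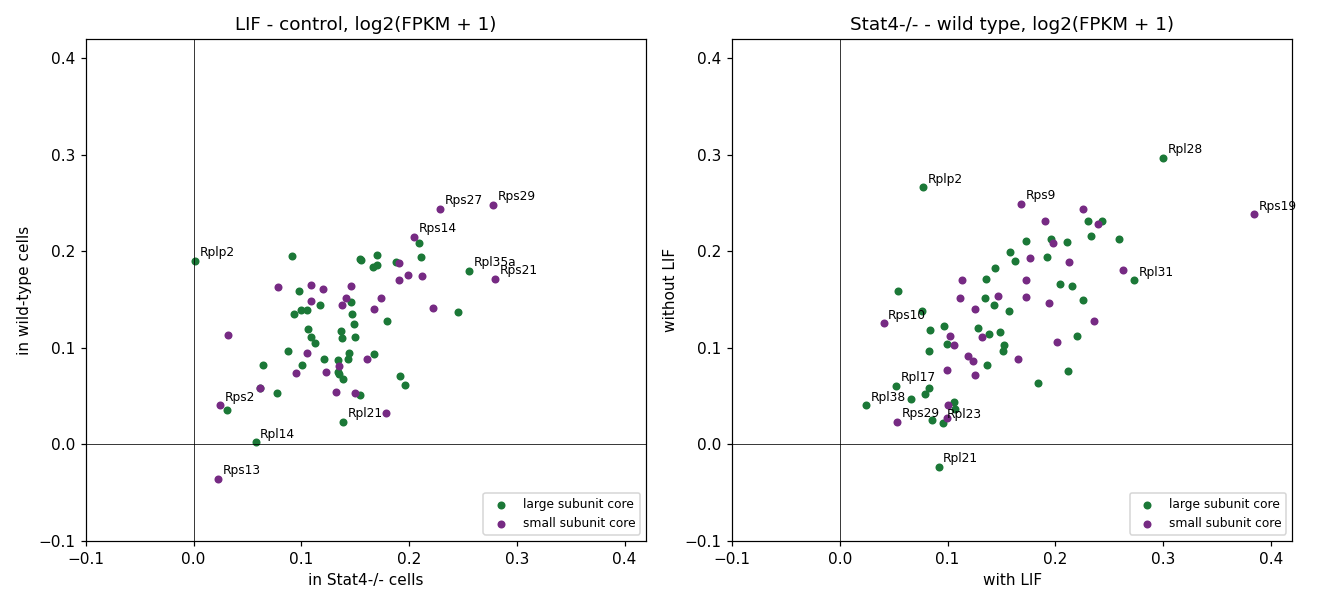
Core genes by their LIF difference in Stat4-/- (horizontal) and wild-type cells (vertical, left panel), and by their genotype difference with LIF (horizontal) and without (vertical, right panel), in log2(FPKM + 1). Rps29 and Rps27 lie at the upper right for LIF, Rpl28 and Rps19 for genotype, and Rplp2 lies off the diagonal in both panels.

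The 4 paralogs did not all keep the order of libraries of the core genes. Rps27l, a close relative of Rps27 that p53 induces, had 245 FPKM with LIF and 210 without in Stat4-/- cells, against 234 with LIF and 205 without in wild-type cells. It rose with LIF together with Rps27, by a coefficient of 0.20 ± 0.037 (SE; limma, adjusted p = 0.0358), and had 0.05 for genotype (adjusted p = 0.384). Rps27l held 22.5% and 22.6% of the summed FPKM of the pair in Stat4-/- cells with and without LIF, against 23.1% and 23.9% in wild-type cells. None of the 31-base words of its transcript stands in Rps27.

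Rpl22l1, which Rpl22 is known to repress in mouse cells, was the paralog above its core gene. It had 116 FPKM with LIF and 120 without in Stat4-/- cells, against 121 with LIF and 125 without in wild-type cells, so its order of libraries was the reverse of that of Rpl22. Its coefficients were -0.04 ± 0.041 for LIF and -0.06 ± 0.041 for genotype (SE), and neither passed (limma, adjusted p = 0.744 and 0.355). Its share of the pair was 57.9% and 59.9% in Stat4-/- cells with and without LIF, against 60.3% and 61.9% in wild-type cells. The genotype sign of Rpl22l1 turned to 0.01 after a correction for GC content.

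Rpl7l1, a nucleolar relative of Rpl7, had 72.3 FPKM with LIF and 67.9 without in Stat4-/- cells, against 66.3 with LIF and 64.7 without in wild-type cells, and its share of the pair with Rpl7 was between 7.17% and 7.48% in all libraries. Rpl37rt, annotated by GENCODE as a transcribed processed pseudogene (ENSMUSG00000072692, chr5:115102923-115110268, mm10), had 4.60 FPKM with LIF and 11.9 without in Stat4-/- cells, against 13.9 with LIF and 6.89 without in wild-type cells. LIF was thus accompanied by less of it in Stat4-/- cells (-1.20 on the log2(FPKM + 1) scale) and more in wild-type cells (0.92). At the estimated depths these levels stand for about 52.2 and 112 fragments in Stat4-/- cells with and without LIF, and about 124 and 68.0 in wild-type cells. Since 39.4% of its 31-base words stand in Rpl37 too, reads of the pair can be exchanged, and its values are uncertain. On the log2(FPKM + 1) scale Rpl37rt was the 1 gene of the family past 2-fold, lower with LIF in Stat4-/- cells, where 0.057% of all genes tested were, and lower in Stat4-/- than in wild-type cells with LIF, where 0.456% were. In the other directions 0 of the 80 genes passed 2-fold. Of all genes tested, 0.0652% were that much higher with LIF in Stat4-/- cells, and 0.0652% higher and 0.0652% lower with LIF in wild-type cells. In Stat4-/- against wild-type cells 0.293% were higher with LIF, and 0.318% were higher and 0.285% lower without LIF. The difference of LIF effects was past 2-fold in the negative direction for Rpl37rt, as for 0.196% of all genes tested, and in the positive direction for 0 of the 80, against 0.147%.

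**Figure D4:**
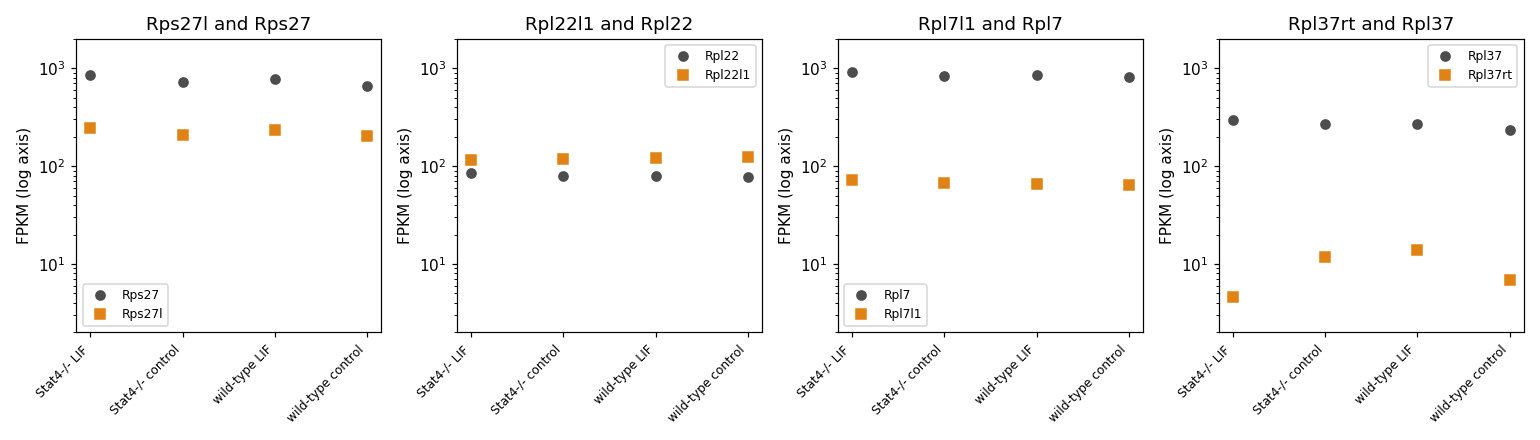
FPKM (log axis) of each paralog (squares) and its core gene (circles) in the 4 libraries. Rpl22l1 lies above Rpl22 in all of them, Rps27l runs parallel to Rps27, and Rpl37rt varies between 4.60 and 13.9 FPKM while Rpl37 stays between 237 and 297 FPKM.

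Differences with LIF went with transcript length. The 20 genes that rose with LIF had a median annotated length of 559 bases, against 884 for the other 60, and 15 of the 20 were 750 bases or shorter, against 22 of the 60. Across the 76 core genes, log length and the LIF difference had an r of -0.28 and a rho of -0.31 in Stat4-/- cells and an r of -0.37 and a rho of -0.39 in wild-type cells. With genotype, the same r was -0.01 with LIF and -0.08 without. The points share their libraries, so these are descriptions.

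Other genes also had a gradient with length, which in Stat4-/- cells did not reach the shortest genes. Of genes outside the family, the 70 of at most 500 bases had a median LIF difference of -0.01 in Stat4-/- cells and of 0.15 in wild-type cells, and the 4995 genes of 2500 to 5000 bases had -0.01 in both. In Stat4-/- cells the median of these other genes was 0.04 at 500 to 750 bases and -0.04 above 5000 bases. In wild-type cells it was 0.10 and -0.04. The 12 ribosomal protein genes of at most 500 bases had 0.20 in Stat4-/- cells and 0.18 in wild-type cells. In the 500 to 750 base range, the 25 ribosomal protein genes had 0.14 in both genotypes, against 0.04 in Stat4-/- and 0.10 in wild-type cells for the 246 others. Of those others, the 46 with a mean of at least 100 FPKM had 0.06 in Stat4-/- and 0.08 in wild-type cells. At 750 to 1000 bases, 56 such genes had 0.06 in Stat4-/- and 0.11 in wild-type cells, against 0.13 and 0.11 in the family. The median genotype coefficients of such genes were 0.15 (6 genes up to 500 bases), 0.05 and 0.08 by rising length. The family had 0.13, 0.13 and 0.14. After a correction for length fitted over genes outside the family, the family's median LIF difference was 0.11 in Stat4-/- cells and 0.04 in wild-type cells. Its median genotype difference was then 0.14 with LIF and 0.08 without.

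**Figure D5:**
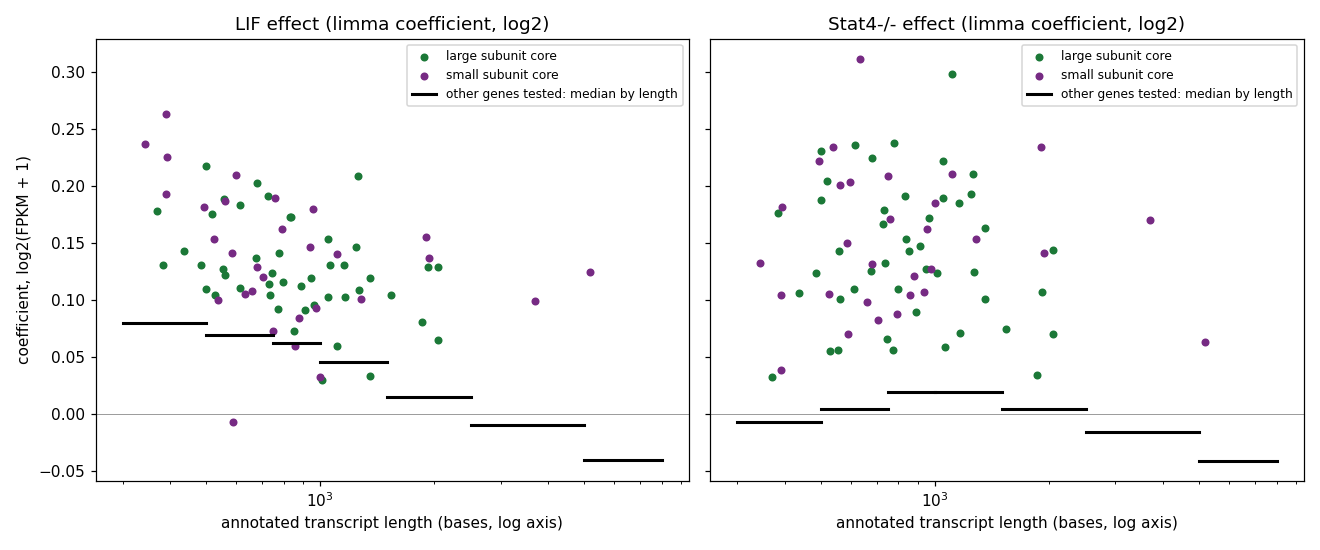
limma coefficient (log2) of each core gene for LIF (left) and for Stat4-/- against wild type (right) by annotated transcript length (log axis), with the median of the other genes tested in each length range as black lines. Most core genes lie above the line of their length range in both panels, and the line for LIF descends with length.

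The medians of genes with and without these motifs lay within 0.03 of each other, and no difference between them was tested. The 18 genes with CTTTCC or CTCTTT on the transcript strand had a median LIF coefficient of 0.13, against 0.13 for the 42 without, and a median genotype coefficient of 0.13, against 0.14 for those without. For the 34 genes with a pyrimidine run the median LIF coefficient was 0.13, against 0.12 for the 26 without, and the median genotype coefficient 0.13 in both. For the 40 genes with CGGAAG it was 0.13 for LIF, against 0.11 for the 20 without, and 0.13 for genotype, against 0.14. With LIF, 5 of the 18 genes with CTTTCC or CTCTTT rose in limma, against 7 of the 42 without. For the pyrimidine run 9 of 34 with it rose, against 3 of 26 without, and for CGGAAG 10 of 40 with it, against 2 of 20 without. Such matches say only what letters stand in these windows.

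Genes around the ribosome were read from lists of the same pathway. Their counts stand beside shares over all genes tested of 7.81% higher and 7.68% lower for genotype, and, for LIF at an unadjusted p under 0.05, 8% higher and 4.52% lower. Of ribosomal protein genes that the symbols leave out, 4 were read (Rps3a1, Rpl36al, Fau and Rack1). All 4 rose in Stat4-/- cells, and all 4 had the order from Stat4-/- LIF at the top to wild-type control at the bottom. For LIF 0 of the 4 passed in limma, and at an unadjusted p under 0.05 all 4 were higher. Fau, which encodes a small subunit protein fused to a ubiquitin-like protein, had 820 FPKM with LIF and 754 without in Stat4-/- cells, against 718 with LIF and 627 without in wild-type cells. Its coefficient was 0.16 ± 0.033 for LIF and 0.23 ± 0.033 for genotype (SE; limma, adjusted p = 0.0531 for LIF and 0.000717 for genotype).

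Of 18 other TOP mRNAs, which encode translation factors and partners, 6 rose, against 7.81% of all genes tested, and 0 fell in Stat4-/- cells, and 0 passed for LIF (limma, with 4 higher and 1 lower at an unadjusted p under 0.05). Their median LIF difference was 0.03 in Stat4-/- and 0.01 in wild-type cells, and their median genotype difference 0.11 with LIF and 0.09 without. Eef1a1, the elongation factor that brings tRNA to the ribosome, had 3122 FPKM with LIF and 3078 without in Stat4-/- cells, against 2988 with LIF and 2967 without in wild-type cells, and passed for neither factor. Eef2, the translocase, rose by 0.13 in Stat4-/- cells (limma, adjusted p = 0.0198) and had 0.02 for LIF (adjusted p = 0.888).

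Of 39 tested genes of ribosome biogenesis, 15 rose, against 7.81% of all genes tested, and 0 fell in Stat4-/- cells, with 0 calls for LIF (limma, with 8 higher and 0 lower at an unadjusted p under 0.05). Their median genotype difference was 0.19 with LIF and 0.13 without. Nhp2, a protein of the H/ACA particles that guide pseudouridylation, had 96.2 FPKM in Stat4-/- and 71.3 in wild-type cells with LIF, and 80.0 in Stat4-/- and 62.2 in wild-type cells without. Both Stat4-/- libraries lay above both wild-type libraries, with a coefficient of 0.39 ± 0.047 (SE). Nhp2 was picked by this coefficient, so its lack of overlap adds no support. Its partners in these particles, Gar1 and Dkc1, rose by 0.34 and 0.29, and Nop56, a core protein of the C/D particles that guide methylation, by 0.31.

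Lists of regulators were read in the same way. Of 20 genes of RNA polymerases I and III, 1 rose and 0 fell in Stat4-/- cells, and of 18 genes of mTORC1 and TOP control, 3 rose and 0 fell. Of 14 genes of ribosomal protein quality control and the p53 checkpoint, 4 rose and 0 fell. Of all genes tested 7.81% rose and 7.68% fell, so the polymerase count is not above that share. In these 3 lists 0 genes passed for LIF in limma, with 2, 3 and 0 higher and 0 lower in each at an unadjusted p under 0.05. Eif4ebp1, the translational repressor that mTORC1 inactivates, rose by 0.20 in Stat4-/- cells (limma, adjusted p = 0.00633), with 146 FPKM in Stat4-/- and 128 in wild-type cells with LIF, and 135 in Stat4-/- and 117 in wild-type cells without.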

How the data were processed

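The values are FPKM as deposited by the authors, 1 column per group, per the file headers. The design text speaks of duplicates, and it is not stated how these relate to the single column of each group. Per the labels' protocols, TruSeq RNA libraries were prepared, with no word on strand. HISAT, Bowtie2 and mm10 are named in the submitters' processing notes; versions and the quantifier were not given in the sources used here. FPKM carry no counts, so depth was estimated from the steps of low values and is approximate; precision is limited by 1 library per group.

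Genes whose mean reached 1 FPKM (12274) were analysed on log2(FPKM + 1), a scale that understates the change of low genes. Single-library differences have no test. An additive limma fit (version 3.58.1, R 4.3.3; genotype and treatment, mean-variance trend, 1 residual degree of freedom, prior 10.2, two-sided) was run over all genes with Benjamini-Hochberg adjustment at 0.05. It counts any interaction as error, was tested on simulated data, and its p-values measure only the spread between these libraries, which may be technical. Lengths and coordinates come from GENCODE M21 (mm10), and start sites from RefSeq GRCm38.p6. Word sharing is the share of 31-base words of a transcript found in another gene.

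The members, the gene lists and the tests were chosen with earlier results of these data known. Named were all paralogs with their core genes, the 5 highest and 5 lowest core genes by mean, by limma coefficient and in each contrast, 11 genes of known role, and up to 4 genes per other list with the largest limma coefficients; of these, the text gives those on which its statements rest. Rpl18 at the end of a range, Krt8, Epcam and the Y-linked genes were named after their values were seen. Alternatives were another pseudocount, filters, scalings, no trend, and, chosen after seeing the data, corrections for length and GC content and leaving out genes that share most of their words. Some named results are not reported here.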

Additional observations from a re-analysis of the deposited data

Results flagged for a closer look

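For 3 genes a difference took opposite signs in the 2 genotypes or treatments, which was not tested since each group has 1 library. The LIF effect of Rps13 was 0.02 in Stat4-/- and -0.04 in wild-type cells, 0.059 higher in Stat4-/- cells on the log2(FPKM + 1) scale. The genotype difference of Rpl21 was 0.09 with LIF and -0.02 without, a difference of 0.115. For Rpl37rt, the LIF effect was -1.20 in Stat4-/- and 0.92 in wild-type cells, a difference of -2.12, and the genotype difference was -1.41 with LIF and 0.71 without, which gives the same -2.12.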

How the results depend on the processing

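The direction of the family medians held in every setting run. The LIF calls, 20 in the main setting, were 9 at a pseudocount of 0.1 and 0 with no filter on low values, with median-of-ratios scaling with or without the family in the factors, with quantile normalization, with no mean-variance trend, and with a length or a GC correction. At an unadjusted p under 0.05 these 7 settings had 63, 70, 70, 24, 16, 32 and 67 genes higher in the same order. The share of all genes at that threshold was not worked out for these settings. After adjustment, 0 to 4 of all genes were called higher with LIF in each of the 7. The LIF calls of the family were 30 at a mean of at least 5 FPKM and 22 under upper-quartile scaling. The genotype calls, 55 in the main setting, were 17 with no filter, 11 with quantile normalization, 0 with no trend and 27 with the length correction. Of all genes, 407, 697, 123 and 685 were called higher in Stat4-/- cells in these settings, in the same order. Quantile normalization lowered the median LIF difference to 0.063 in Stat4-/- and 0.045 in wild-type cells, and the median genotype difference to 0.064 with LIF and 0.043 without. The length correction lowered the LIF median in wild-type cells to 0.044.

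Under quantile normalization the LIF coefficient turned to -0.024 for Rpl10, -0.059 for Rpl14, -0.017 for Rpl23a, -0.020 for Rpl28, -0.033 for Rpl3 and -0.0094 for Rpl7. The genotype coefficient turned there to -0.064 for Rpl10, -0.067 for Rpl17, -0.076 for Rpl23a, -0.042 for Rpl26, -0.035 for Rpl34, -0.072 for Rpl38, -0.066 for Rpl7, -0.039 for Rps13 and -0.013 for Rps29. The length correction turned the LIF coefficient to -0.017 for Rpl14 and -0.014 for Rps2. Median-of-ratios scaling turned that of Rps13 to 0.0013, or 0.0019 without the family in the factors, and the GC correction the genotype coefficient of Rpl22l1 to 0.0082. The cause was not tested.

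With 1 library per group, leaving out a replicate was not run. No paired analysis was possible because each group holds 1 library and all share the number 1. Depth limits chiefly Rpl37rt.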

Other observations

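Mitochondrial ribosomal proteins, which build the separate ribosome of that organelle, had medians nearer to 0 than the cytosolic family. Of 77 tested genes, 1 rose with LIF (Mrpl53) and 0 fell (limma, with 11 higher and 3 lower at an unadjusted p under 0.05). In Stat4-/- cells 7 rose and 4 fell, where 7.81% and 7.68% of all genes tested did. Their median LIF difference was 0.01 in Stat4-/- and 0.06 in wild-type cells, and their median genotype difference 0.02 with LIF and 0.04 without, on the log2(FPKM + 1) scale. Mrpl53 had 39.6 FPKM with LIF and 32.2 without in Stat4-/- cells, against 40.6 with LIF and 33.1 without in wild-type cells. Mrps18b had 54.5 FPKM in Stat4-/- and 41.1 in wild-type cells with LIF, and 52.7 in Stat4-/- and 43.2 in wild-type cells without, and rose by 0.34 in Stat4-/- cells (limma, adjusted p = 0.00146).

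The GC content of core transcripts and the genotype difference had Pearson r = 0.17 and Spearman rho = 0.15 with LIF, and r = 0.41 and rho = 0.42 without LIF, across 76 genes that share the same libraries. Among 11823 other genes the same r was 0.05 with LIF and 0.16 without LIF.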
